A study of Homo sapiens with 8 samples.

Results

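The genes described here encode the machinery that copies chromosomal DNA. They were chosen by name, from a list of 41 genes, and their values were read from a table of 13471 genes. A row was found for 39 of the 41. MCM10 and RFC1 had no row and were not analysed here. All 39 are protein-coding, and all 39 reached 1 FPKM (a fragment count divided by transcript length and by library size) in at least 2 libraries, as did 11803 of all 13471 genes. For 6 of the 39, the interval in the table overlaps other genes, so their values are uncertain: ORC4 overlaps ACVR2A and MBD5, MCM7 overlaps AP4M1, CNPY4 and TAF6, GINS4 overlaps GPAT4, POLA1 overlaps SCARNA23, RFC4 overlaps EIF4A2 and small nucleolar RNA genes, and RPA3 overlaps UMAD1.

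The study sequenced RNA from hTERT-RPE1, an established line of human retinal pigment epithelial cells made immortal by telomerase, with and without immunoprecipitation (IP) of hnRNP U, a nuclear protein that binds RNA and DNA, to find the RNAs that the IP enriches. In the 2 interphase groups, cells spent 24 h in 2 mM thymidine, an agent that stalls replication forks. In the 2 mitotic groups, cells were kept in 2 mM thymidine for 24 h, grown for 6 h in medium free of it, and then held overnight in S-trityl-L-cysteine (STLC), which inhibits the spindle motor Eg5. Each phase has 2 libraries without IP and 2 libraries from an IP with an anti-hnRNP U antibody, so that 8 libraries form 4 groups. All were made from lysates cleared by centrifugation and from RNA depleted of ribosomal RNA. Interphase here therefore means thymidine-treated cells and mitosis means cells in a drug-induced arrest, in a single cell line. No values from a control IP were used here, and specific and carried-over RNA in the hnRNP U IP therefore cannot be told apart. Nothing in the labels says that replicates are separate cultures, so p-values measure only the spread between these libraries.

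Before a chromosome can be copied, the origin recognition complex (ORC) binds start sites and, with CDC6 and CDT1, loads the ring of MCM2 to MCM7 onto DNA, a step called licensing. Geminin (GMNN) blocks CDT1. In S phase, CDC45 and the GINS complex join the ring to form the CMG helicase, which unwinds DNA. DNA polymerase alpha with primase starts each strand, polymerases delta and epsilon extend it, and the clamp PCNA, opened by the clamp loader RFC, holds them on the template. RPA coats single-stranded DNA, and FEN1 and LIG1 trim and join the fragments of the lagging strand. Many of these genes are known targets of E2F transcription factors, which act around the start of S phase.

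CDC6 and PCNA, loading factor and clamp, hold a match to an E2F-type motif and had lower RNA in mitosis without IP. Their promoter sequences are shown, with those of the MCM genes found to have 2 or more matches. Each is the RefSeq sequence (GRCh38.p14) from 200 bases before to 30 bases after the most upstream listed transcript start, written 5′ to 3′ on the gene's strand, and capitals mark the motif. The windows are chr3:127598211-127598440, plus strand (MCM2), chr6:52284713-52284942, minus strand (MCM3), chr2:135876414-135876643, minus strand (MCM6), chr7:100101368-100101597, minus strand (MCM7), chr17:40287679-40287908, plus strand (CDC6) and chr20:5126593-5126822, minus strand (PCNA).
MCM2: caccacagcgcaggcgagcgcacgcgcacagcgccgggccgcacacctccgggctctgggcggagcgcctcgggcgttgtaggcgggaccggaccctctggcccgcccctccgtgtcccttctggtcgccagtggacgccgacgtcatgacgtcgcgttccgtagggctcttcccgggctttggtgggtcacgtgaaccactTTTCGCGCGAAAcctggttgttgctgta
MCM3: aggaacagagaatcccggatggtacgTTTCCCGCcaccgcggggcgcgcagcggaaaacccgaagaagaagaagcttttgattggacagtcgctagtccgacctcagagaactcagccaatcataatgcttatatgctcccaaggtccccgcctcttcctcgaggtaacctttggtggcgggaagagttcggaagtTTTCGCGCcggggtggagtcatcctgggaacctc
MCM6: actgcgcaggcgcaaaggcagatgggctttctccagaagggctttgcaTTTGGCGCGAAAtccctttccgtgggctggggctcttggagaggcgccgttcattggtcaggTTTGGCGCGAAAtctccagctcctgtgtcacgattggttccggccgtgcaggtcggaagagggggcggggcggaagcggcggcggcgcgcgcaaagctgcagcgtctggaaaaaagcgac
MCM7: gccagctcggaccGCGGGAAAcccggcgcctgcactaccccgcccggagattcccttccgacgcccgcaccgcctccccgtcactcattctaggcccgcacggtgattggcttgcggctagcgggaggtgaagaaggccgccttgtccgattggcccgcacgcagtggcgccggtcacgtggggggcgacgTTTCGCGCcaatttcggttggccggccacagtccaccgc
CDC6: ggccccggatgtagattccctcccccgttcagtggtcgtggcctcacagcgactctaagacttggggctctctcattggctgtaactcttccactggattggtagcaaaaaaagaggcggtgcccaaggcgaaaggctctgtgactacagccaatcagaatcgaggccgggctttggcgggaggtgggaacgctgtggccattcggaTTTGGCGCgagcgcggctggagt
PCNA: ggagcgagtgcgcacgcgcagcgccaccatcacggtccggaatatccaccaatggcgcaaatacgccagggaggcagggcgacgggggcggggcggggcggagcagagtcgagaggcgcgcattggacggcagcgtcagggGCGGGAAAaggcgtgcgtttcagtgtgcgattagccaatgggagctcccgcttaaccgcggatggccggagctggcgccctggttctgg

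The search was for TTTGGCGC, TTTCCCGC, TTTGCCGC and TTTCGCGC on both strands in 300-base windows, from 250 bases before to 50 bases after the start. Of the 39 genes, 33 had a promoter in the RefSeq table, and 17 of the 33 (51.5%) held a match. MCM4, MCM5, GINS4, POLD3, RPA2 and RPA3 had no promoter there and were not searched. The share was 5.51% (543 of 9858) among genes of the expression table with a promoter, and 3.34% (911 of 27305) among all symbols of the promoter table. In MCM2 and MCM6 the capitals run over 12 bases because matches on opposite strands overlap, and MCM6 has 2 such runs. The matches lie at positions 3 and 7 from the start in MCM2, at -174 and -4 in MCM3, at -187 and -9 in MCM7, at 8 in CDC6 and at -59 in PCNA. No match was found in the windows of 16 genes, among them ORC1, CDC45, PRIM1, POLD2 and FEN1. A match is a description of the sequence and says nothing of binding in these cells.

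Replicates of a group correlated across genes at 0.989 to 0.995 (Pearson's r on the log2 scale). Total fragment numbers are unknown, and relative depth, read from the steps of the lowest values, was 0.638 to 1.19 times that of interphase no-IP replicate 1. The 10 most abundant genes made up 58.4% to 63.0% of summed FPKM where no IP was done, and 12.4% to 20.6% after IP. The part of this in the IP effects was not tested directly, but they were recomputed after centring and after quantile normalization. The mitotic markers CCNB1, CDC20, PLK1, AURKA, BUB1 and CENPF were all 6 higher in mitosis without IP, with log2 fold changes of 1.18 to 2.66, and of 4 G1/S genes CCNE1, CCNE2 and E2F1 were lower (-1.58, -2.18 and -0.45) and CCND1 was higher (0.47, limma adjusted p 0.0182). Of 9 retinal pigment epithelium markers, 6 (RPE65, BEST1, RLBP1, TYR, TYRP1 and TTR) had no row, PMEL stayed at or below 0.144 FPKM, and MITF and OTX2 had 3.33 to 33.2 FPKM, so the labelled cell type rests on few of its defining genes here. COL1A1, a fibroblast gene, stayed at or below 1.44 FPKM, and PTPRC, PECAM1 and EPCAM, listed for other cell types, had no row. In interphase without IP, the epithelial keratins KRT8 and KRT18 had means of 43.9 and 74.4 FPKM. The mesenchymal gene VIM had 1809 FPKM there, and the telomerase gene TERT 0.31 FPKM.

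Taken by their median, the replication genes were of middle to high abundance. In interphase without IP some lay below the median of all genes, among them ORC1, POLE, POLA1, POLE2 and LIG1. The median of the list per library was 11.1 to 13.6 FPKM, against 5.96 to 7.13 FPKM over all genes of the table. It lay above 61.4% to 67.3% of all genes. PCNA was the highest replication gene in 7 of the 8 libraries and POLD2 in the remaining one. ORC1 was the lowest in all 4 libraries without IP, at 2.97 to 3.32 FPKM, while RPA3 or POLD1 was the lowest in the IP libraries.

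**Figure D1:**
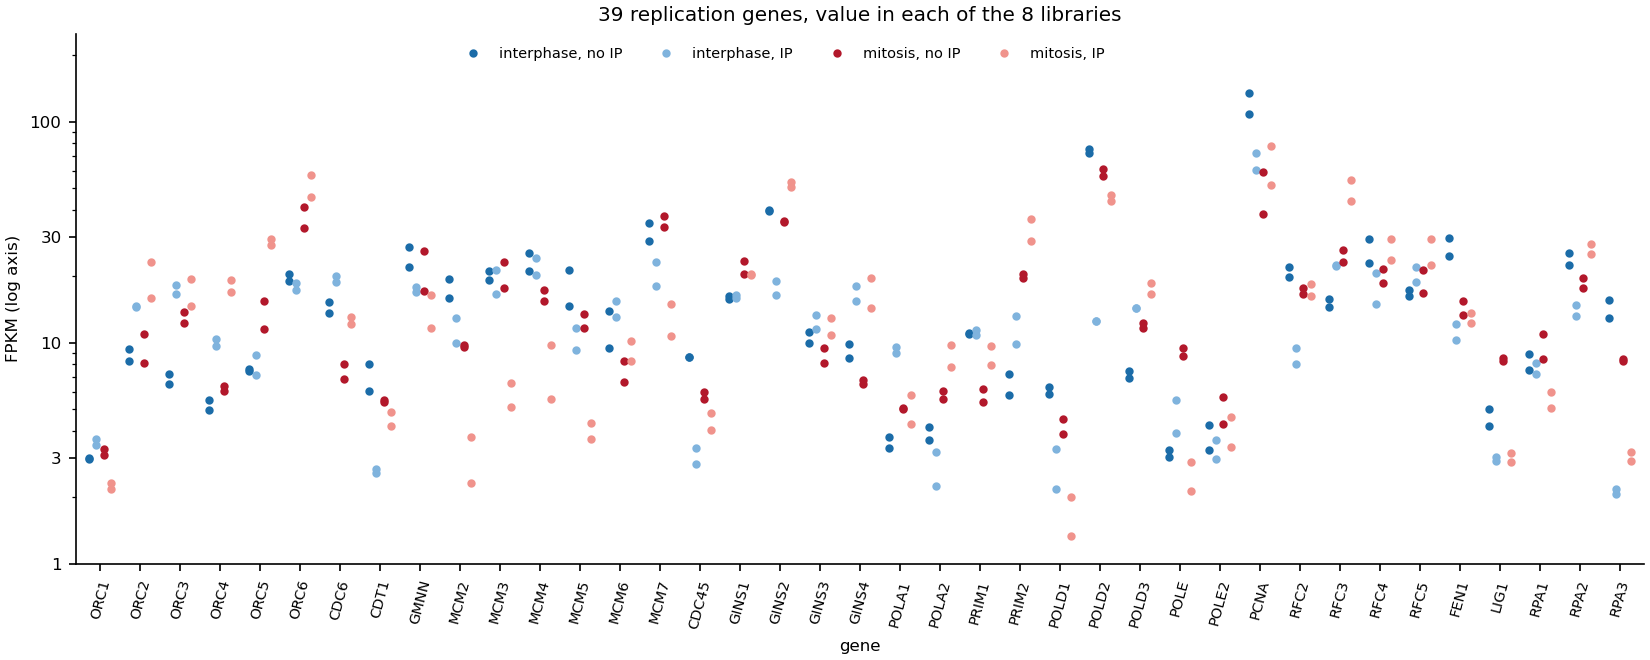
Level of the 39 replication genes in each of the 8 libraries (FPKM, logarithmic axis), 2 points per group, genes ordered by role. Most values lie between 3 and 30 FPKM, PCNA reaches 135 FPKM, and POLD1 in the mitotic IP is the lowest at 1.34 FPKM.

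Without IP, the replication genes moved in both directions between the phases. PRIM2, POLE, ORC6, ORC3, ORC5, LIG1, POLD3 and RFC3 were higher in mitosis, from 3.06-fold for PRIM2 to 1.63-fold for RFC3. PCNA, CDC6, FEN1, PRIM1 and RPA3 were lower, with interphase levels 2.49-fold (PCNA) to 1.7-fold (RPA3) above the mitotic ones. In limma on log2(FPKM + 1), adjusted over all genes and with a threshold of 0.05 on the adjusted p, 11 of 39 were higher and 10 lower, shares of 28.2% and 25.6%. Over all 13471 genes the shares were 26.2% higher and 25.5% lower (51.7% in either direction), so the list stands near the background. Its median log2 fold change was -0.16, against -0.00 over all genes, and 0.05 without the first mitotic library without IP. The 13 genes named above kept their call in every alternative and with any 1 library left out. The split depended on scaling, with 9 higher and 15 lower after centring each library on its median and 11 and 16 after quantile normalization. In bulk RNA, fewer cells with a transcript and less RNA per cell cannot be told apart.

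**Figure D2:**
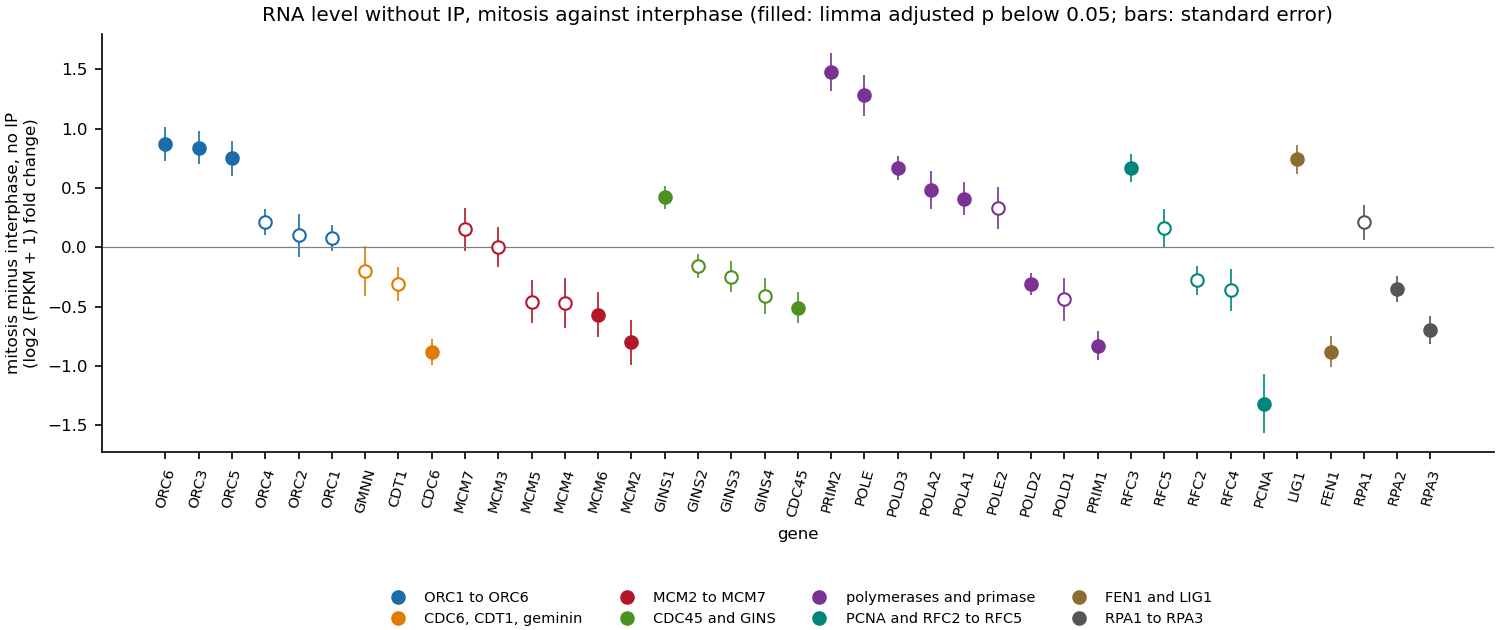
Difference between mitosis and interphase without IP (log2 (FPKM + 1) fold change, vertical axis) for each gene, grouped and coloured by role. Filled points have a limma adjusted p below 0.05 and bars are standard errors. ORC3, ORC5 and ORC6 are filled above 0, PCNA (-1.32) is the lowest and PRIM2 (1.48) the highest.

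In interphase, the IP held less RNA of POLD2, RPA3, CDC45 and GINS2 than the libraries without IP, and more of ORC3, POLA1, POLD3, GINS4 and PRIM2. The level without IP was 6.69-fold that in the IP for RPA3 and 5.85-fold for POLD2, and the IP was 2.62-fold above for POLA1 and 2.54-fold for ORC3. By the limma test, 10 of 39 were higher and 16 lower in the IP, 25.6% and 41%, beside 37.6% and 37% of all genes (74.6% in either direction). The median was -0.09 and that of all genes 0.02. The 9 genes named in the opening sentence kept their call in each alternative and with any 1 library left out. The number of lower genes fell from 16 to 9 without the first interphase library without IP and to 10 without the second interphase IP library. With the trends by GC content and transcript length removed, 8 were higher and 6 lower. The sign turned for 12 genes that were called with or without this removal. It turned as well for genes called in neither case, among them ORC5, MCM3, MCM6, GINS3 and POLE2.

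In mitosis, 5 of the 6 MCM2 to MCM7 genes were lower in the IP, and ORC2, ORC4, ORC5, CDC6, GINS2, GINS4, RFC3 and RPA2 were higher. POLE, LIG1, RPA1 and RPA3 were lower as well. The level without IP was 3.60-fold that in the IP for POLE, 3.49-fold for MCM3, 3.20-fold for MCM2 and 3.16-fold for MCM5, whereas ORC4 was 2.91-fold and GINS4 2.56-fold higher in the IP. In the limma fit 15 of 39 were higher and 13 lower, 38.5% and 33.3%, beside 32.8% and 31.7% of all genes (64.5% in either direction), with a median of 0.01 for the list and for all genes. All 17 of these genes kept their call in every alternative and with any 1 library left out.

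**Figure D3:**
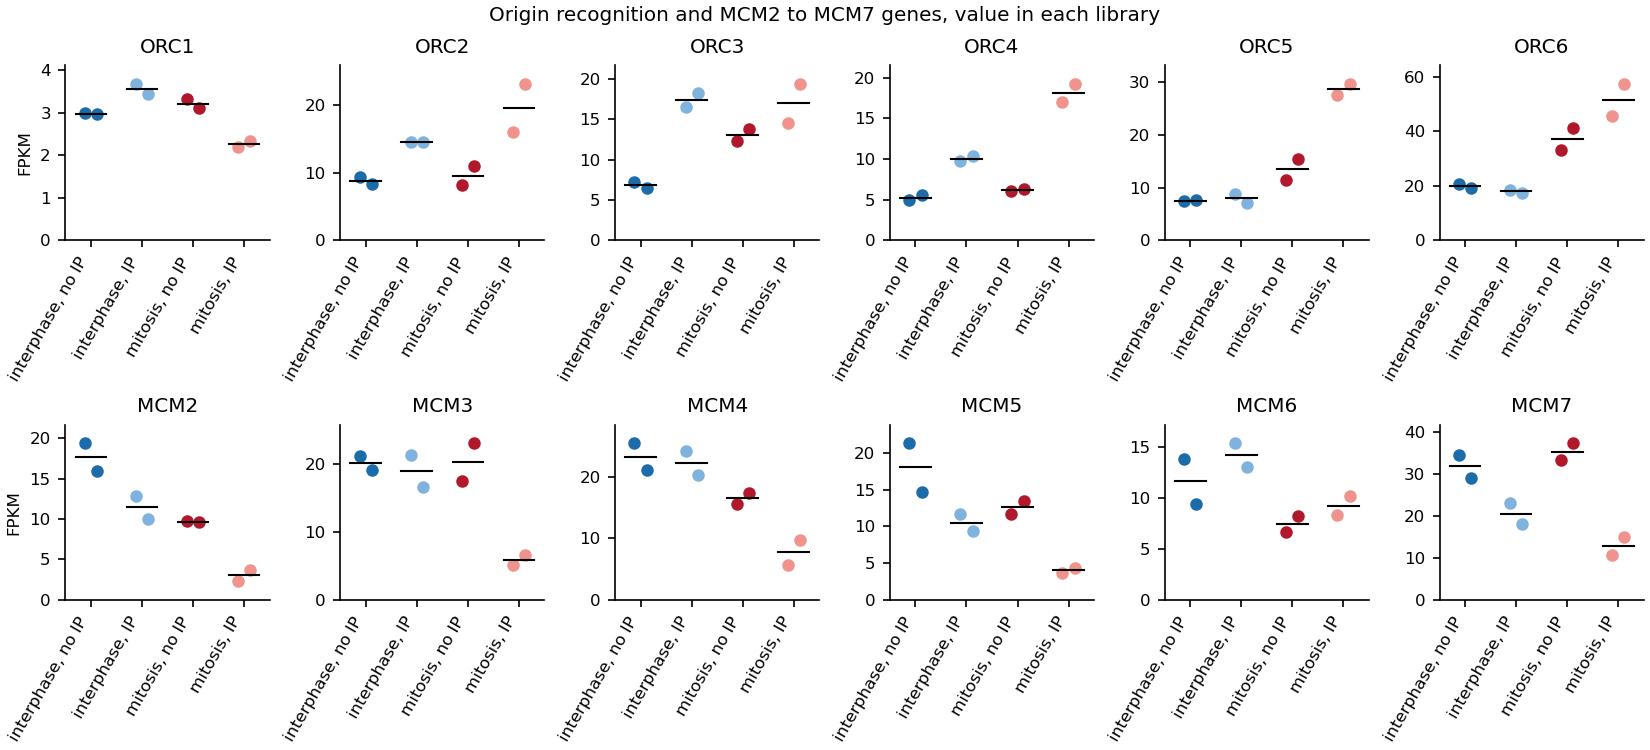
Level of ORC1 to ORC6 (upper row) and MCM2 to MCM7 (lower row) in each library (FPKM, linear axes from 0); points are libraries and lines are means of the 2 libraries of a group. In the mitotic IP both points of MCM2, MCM3, MCM4, MCM5 and MCM7 lie below all their other points, while MCM6 does not.

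The licensing genes are given first. In the mitotic IP, 4 of the 6 ORC genes were higher and ORC1 lower, and 5 of the 6 ring genes were lower. Over all genes, 32.8% were higher and 31.7% lower there. ORC3 and MCM6 were not called, and the complex and the ring were not tested against each other. ORC1 encodes the largest ORC subunit. It measured 3.00 and 2.97 FPKM in no-IP interphase, 3.68 and 3.45 FPKM in the interphase IP, 3.32 and 3.12 FPKM in mitosis without IP and 2.19 and 2.33 FPKM in the mitotic IP. The mitotic IP is thus its lowest group and overlaps with none of the others. Its log2 fold change in the mitotic IP was -0.37 (SE 0.11, limma adjusted p 0.015), a call lost in 2 of the 8 fits that each left out 1 library (without the first mitotic library without IP it was -0.34, adjusted p 0.0823), after quantile normalization (-0.23, adjusted p 0.0875) and with length and GC trends removed (-0.24, adjusted p 0.0721). Its interphase IP effect of 0.19 (limma adjusted p 0.135) was called after median centring (0.31, adjusted p 0.0272), after quantile normalization (0.46, adjusted p 0.00322) and with the trends removed (0.55, adjusted p 0.00159). ORC2 measured 9.33 and 8.29 FPKM in no-IP interphase, 14.6 and 14.5 FPKM in its IP, 8.13 and 11 FPKM in mitosis without IP and 16.0 and 23.1 FPKM in that IP. Both IP groups lie above both groups without IP. The log2 fold changes of the IP were 0.67 (SE 0.18, limma adjusted p 0.00897) in interphase and 0.95 (SE 0.18, limma adjusted p 0.00173) in mitosis, and the interphase one was -0.17 (adjusted p 0.414) with length and GC trends removed and 0.59 (adjusted p 0.0547) without the second interphase library without IP. With the trends removed the mitotic one was 0.45 (adjusted p 0.0429).

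ORC3 and ORC4, further subunits of the complex, were both higher in the interphase IP. ORC3 went from 7.22 and 6.54 FPKM without IP to 16.6 and 18.3 FPKM in the interphase IP, a log2 fold change of 1.23 (SE 0.14, limma adjusted p 5.25e-05). In mitosis it measured 12.3 and 13.8 FPKM without IP and 14.6 and 19.4 FPKM in the IP (log2 fold change 0.34, limma adjusted p 0.0626). The effect of the IP on ORC3 was smaller in mitosis by 0.88 on the log2 scale (SE 0.20, limma adjusted p 0.00714). ORC4, whose interval overlaps other genes, measured 4.97 and 5.52 FPKM against 9.69 and 10.4 FPKM in the interphase IP, and 6.06 and 6.36 FPKM against 17.0 and 19.2 FPKM in the mitotic IP. Its mitotic log2 fold change of 1.40 (SE 0.11, limma adjusted p 1.52e-05) was the largest of the 39 genes in this fit. Once length and GC trends were removed it was 0.75, below the 1.15 of GINS4, and the interphase one of 0.82 turned to -0.38 (limma adjusted p 0.0106).

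ORC5 and ORC6 were not called in the interphase IP and were higher in the mitotic IP. ORC5 measured 7.44 and 7.6 FPKM without IP and 8.77 and 7.17 FPKM in the interphase IP, which overlap. In mitosis it had 11.5 and 15.5 FPKM without IP and 27.6 and 29.6 FPKM in the IP, a log2 fold change of 1.04 (SE 0.15, limma adjusted p 0.00029). Between the phases it was higher in mitosis by 0.75 without IP and by 1.73 in the IP. ORC6, a further subunit, had a log2 fold change of 0.87 between the phases without IP (SE 0.14, limma adjusted p 0.00111). Its IP effect in mitosis, 0.46 (limma adjusted p 0.0178), was lost in 2 of the 8 fits with a library left out (0.31, adjusted p 0.135 without the first mitotic library without IP) and after quantile normalization (0.24, adjusted p 0.18). Its interphase effect of -0.13 was 0.41 (limma adjusted p 0.0218) with length and GC trends removed.

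Among the loading factors, CDC6, the ATPase that helps ORC to load MCM, measured 15.3 and 13.7 FPKM in interphase without IP against 20 and 18.8 FPKM in the IP. In mitosis it had 6.88 and 7.99 FPKM without IP and 12.2 and 13.1 FPKM in the IP. Mitotic levels are below interphase ones with and without IP, and IP levels are above those without IP in both phases. The phase difference was -0.88 without IP (SE 0.11, limma adjusted p 0.000357) and -0.58 in the IP (SE 0.11, limma adjusted p 0.00187). Its IP effect was 0.40 in interphase (limma adjusted p 0.00963; 0.33 and 0.076 without the second interphase library without IP, and -0.09 and 0.507 with length and GC trends removed) and 0.70 in mitosis (limma adjusted p 0.000569; 0.46 and 0.0059 with the trends removed).

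CDT1, which carries the MCM ring to origins, measured 8.05 and 6.07 FPKM in interphase without IP against 2.68 and 2.57 FPKM in the IP. In mitosis the libraries were closer, with 5.41 and 5.53 FPKM without IP and 4.88 and 4.22 FPKM in the IP. Its interphase IP effect of -1.14 (SE 0.14, limma adjusted p 8.13e-05) became 0.01 (adjusted p 0.973) once length and GC trends were removed. The IP effect in mitosis was -0.22 (limma adjusted p 0.202), and it was 0.42 (adjusted p 0.0184) with those trends removed. GMNN measured 27.0 and 22.1 FPKM in no-IP interphase, 16.9 and 17.8 FPKM in the interphase IP, 17.1 and 26.1 FPKM in mitosis without IP and 11.7 and 16.5 FPKM in the mitotic IP. The mitotic libraries without IP of GMNN overlap with both interphase groups, and its call in the mitotic IP (-0.57, limma adjusted p 0.0401) was lost in 4 of the 8 fits (-0.28, adjusted p 0.279 without the second mitotic library without IP) and after median centring (-0.47, adjusted p 0.0827).

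The 6 MCM genes encode the ring-shaped motor of the helicase, and 5 of them were lower in the mitotic IP. MCM2 (chromosome 3, 127598223 to 127622436) measured 19.4 and 15.9 FPKM in no-IP interphase, 12.9 and 10 FPKM in the interphase IP, 9.79 and 9.58 FPKM in mitosis without IP and 2.32 and 3.74 FPKM in the mitotic IP. MCM3 (chromosome 6, 52264009 to 52284881) measured 21.2 and 19.2 FPKM, 21.3 and 16.7 FPKM, 17.6 and 23.1 FPKM, and 5.10 and 6.59 FPKM in the same order. The first 3 groups of MCM3 overlap, and the mitotic IP lies below all of them. MCM4 measured 25.4 and 21.1 FPKM, 24.1 and 20.3 FPKM, 15.5 and 17.4 FPKM, and 5.59 and 9.75 FPKM in that order. MCM5 (chromosome 22, 35400063 to 35425430) measured 21.3 and 14.7 FPKM, 11.7 and 9.30 FPKM, 11.7 and 13.5 FPKM, and 3.67 and 4.33 FPKM. For each of these genes the mitotic IP is the lowest group and does not overlap with any other. How many of all genes show this was not counted, and 31.7% of all genes were called lower in the mitotic IP. MCM7, whose interval overlaps other genes, measured 34.7 and 29 FPKM, 23.2 and 18 FPKM, 33.3 and 37.4 FPKM, and 10.7 and 15.0 FPKM. MCM6 (chromosome 2, 135839626 to 135876426) measured 13.9 and 9.42 FPKM, 15.4 and 13.1 FPKM, 6.64 and 8.27 FPKM, and 8.29 and 10.2 FPKM. Its mitotic IP lies above its mitotic libraries without IP, with no more than a small gap between them.

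In the mitotic IP the log2 fold changes were -1.43 for MCM2 (SE 0.19, limma adjusted p 0.000174), -1.64 for MCM3 (SE 0.17, adjusted p 5.23e-05), -1.05 for MCM4 (SE 0.21, adjusted p 0.00226), -1.45 for MCM5 (SE 0.18, adjusted p 0.000142) and -1.41 for MCM7 (SE 0.18, adjusted p 0.000136). The value for MCM6 was 0.28 (SE 0.19, limma adjusted p 0.226). Whether MCM6 differs from the other 5 genes was not tested. With length and GC trends removed, the 5 decreases were -0.92 to -1.46 and kept their call, and MCM6 stood at -0.06. The ring gene median was -1.42, beside 0.01 over all genes. Medians of other roles in the mitotic IP were 0.70 for ORC, 0.40 for CDC45 and GINS, 0.40 for RFC2 to RFC5 and -0.01 for polymerases and primase. Those of RPA (-0.71), of FEN1 and LIG1 (-0.68) and of CDC6, CDT1 and GMNN (-0.22) were negative. For the 14 licensing genes (ORC, CDC6, CDT1 and MCM2 to MCM7) together, the median was 0.03.

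For these 5 genes the IP effects in interphase lay closer to 0. They were -0.58 for MCM2 (SE 0.19, limma adjusted p 0.019), -0.71 for MCM5 (SE 0.18, adjusted p 0.0066) and -0.61 for MCM7 (SE 0.18, adjusted p 0.0118), each lost without the first interphase library without IP (-0.45, -0.45 and -0.48, adjusted p 0.124, 0.0588 and 0.0825) and without the second interphase IP library (-0.42, -0.55 and -0.43, adjusted p 0.13, 0.0543 and 0.0914). With length and GC trends removed they were 0.26, -0.11 and 0.35, and none was called. MCM3 (-0.09), MCM4 (-0.06) and MCM6 (0.29) did not pass the limma test, with adjusted p of 0.646, 0.801 and 0.194, although MCM6 was 0.55 (adjusted p 0.0339) without the first interphase library without IP.

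The change of the IP effect from interphase to mitosis, tested as an interaction in limma, was -1.55 for MCM3 (SE 0.24, adjusted p 0.0011), and this call held with any 1 library left out and in every alternative. For the other ring genes it was -0.85 for MCM2, -0.98 for MCM4, -0.74 for MCM5 and -0.80 for MCM7 (limma adjusted p 0.0287, 0.0259, 0.0433 and 0.0282), and it was -0.01 for MCM6 (adjusted p 0.98). Those 4 calls rested on single libraries. Without the second interphase library without IP, the values were -0.71, -0.86, -0.49 and -0.67 with limma adjusted p of 0.0997, 0.0855, 0.143 and 0.0954, and the calls were lost in 5, 3, 5 and 4 of the 8 such fits. Without IP, MCM2 had a phase difference of -0.80 (limma adjusted p 0.00721; -0.66 and 0.0575 without the first interphase library without IP) and MCM6 of -0.57 (limma adjusted p 0.0333; -0.31 and 0.237 without that library). Within the IP, all 6 were lower in mitosis than in interphase, from -1.64 for MCM2 to -0.58 for MCM6, beside 25.6% of all genes. The MCM6 and MCM7 calls were lost in 2 of 8 fits each. The value was -0.44 for MCM6 without the first mitotic IP library, and -0.48 for MCM7 without the first interphase IP library.

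Of CDC45 and the 4 GINS genes, which complete the CMG helicase, 3 were higher and none was lower in the mitotic IP by the limma test. The shares over all genes were 32.8% higher and 31.7% lower. CDC45 was called lower (-0.32, limma adjusted p 0.0398) when genes of low level were left out. CDC45, which bridges the ring and GINS, stood in interphase at 8.60 and 8.62 FPKM without IP, compared with 3.33 and 2.84 FPKM with it. The mitotic values were 5.54 and 5.98 FPKM without IP and 4.83 and 4.04 FPKM in the IP. The interphase IP effect was -1.24 (SE 0.13, limma adjusted p 2.23e-05) and the mitotic one -0.32 (SE 0.13, limma adjusted p 0.0522). With length and GC trends removed, the interphase effect was -0.41 (adjusted p 0.0147), and the difference, 0.92 (limma adjusted p 0.00315), was 0.36 (adjusted p 0.121). GINS2 (chromosome 16, 85676198 to 85690073) measured 39.9 and 39.4 FPKM in interphase without IP against 16.4 and 19.0 FPKM in the IP, but 35.0 and 35.6 FPKM in mitosis without IP and 50.9 and 53.5 FPKM in the IP. It was thus lower in the interphase IP and higher in the mitotic IP, with no overlap in either phase. Its IP effects were -1.12 (SE 0.10, limma adjusted p 9.67e-06) and 0.55 (SE 0.10, limma adjusted p 0.00118), and their difference was 1.67 (SE 0.14, limma adjusted p 7.79e-05), a call kept in every alternative.

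For the other GINS subunits the difference between the phases was not called (limma adjusted p 0.556 for GINS1, 0.486 for GINS3 and 0.141 for GINS4), although that of GINS4 was 0.63 (adjusted p 0.0306) without the first mitotic IP library, against 0.42 with it. GINS4, whose interval overlaps GPAT4, measured 9.82 and 8.53 FPKM against 18 and 15.4 FPKM in the interphase IP, and 6.49 and 6.81 FPKM against 14.4 and 19.6 FPKM in the mitotic IP. Its IP effects were 0.80 (SE 0.15, limma adjusted p 0.00121) and 1.22 (SE 0.15, limma adjusted p 0.000134). GINS1 had IP effects of 0.01 and -0.10, neither of which passed the limma test (adjusted p 0.918 and 0.413), though with length and GC trends removed they were -0.51 and -0.50 and called. GINS3 had IP effects of 0.22 and 0.40, the second called (limma adjusted p 0.0278) but lost in 2 of 8 fits (0.30, adjusted p 0.164 without the first mitotic library without IP) and with length and GC trends removed (0.11, adjusted p 0.481).

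The polymerase genes are given by complex. Within polymerase alpha and primase, POLA1, the catalytic subunit, measured 3.76 and 3.33 FPKM in interphase without IP against 9.56 and 9.02 FPKM in the IP, and 5.00 and 5.07 FPKM against 4.31 and 5.79 FPKM in mitosis. Its interphase IP effect was 1.18 (SE 0.14, limma adjusted p 5.88e-05) and the mitotic one -0.01, a difference of -1.19 (SE 0.20, limma adjusted p 0.00149). With length and GC trends removed they were 0.40 (adjusted p 0.0291) and -0.41 (adjusted p 0.026), so that the mitotic effect was called as well. The mitotic groups overlap and the interphase groups do not. POLA1 holds a small RNA gene in its interval. POLA2, the regulatory subunit, had IP effects of -0.41 and 0.51 with a difference of 0.92 (limma adjusted p 0.0107), of which the difference held in every alternative. The single effects did not, since the first was lost in 5 of 8 fits (-0.22, adjusted p 0.275 without the second interphase IP library) and turned to 0.15 with length and GC trends removed, and the second was lost in 2 (0.36, adjusted p 0.135 without the second mitotic IP library; it was 0.83 with the trends removed).

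PRIM1, the primase that makes RNA primers, measured 11 and 11.1 FPKM in interphase without IP against 11.4 and 10.8 FPKM in the IP, and 5.41 and 6.19 FPKM against 7.91 and 9.63 FPKM in mitosis. Without IP it was lower in mitosis (-0.83, SE 0.12, limma adjusted p 0.000745). PRIM2, the large primase subunit, moved the other way, from 7.25 and 5.81 FPKM in interphase without IP to 20.4 and 19.6 FPKM in mitosis (1.48, SE 0.16, limma adjusted p 0.000167). Its IP libraries had 13.2 and 9.85 FPKM in interphase and 36.2 and 29 FPKM in mitosis, above the libraries without IP in both phases. Its IP effects were 0.72 and 0.67 (limma adjusted p 0.0031 and 0.00602), and the mitotic one was 0.34 (adjusted p 0.127) with length and GC trends removed.

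In polymerase delta, which extends the lagging strand, POLD2 (chromosome 7, 44114681 to 44124358) measured 75 and 71.9 FPKM in interphase without IP but 12.6 and 12.5 FPKM in the IP. In mitosis it had 61.0 and 56.8 FPKM without IP and 43.6 and 46.8 FPKM in the IP. The interphase effect of -2.46 (SE 0.09, limma adjusted p 2.67e-07) and the difference of 2.08 (SE 0.13, limma adjusted p 5.06e-05) were the most extreme of the 39 genes in this fit and kept their call throughout. With length and GC trends removed they were -1.06 and 1.31, and the interphase effect of RPA3 (-1.97) and the difference of GINS2 (1.39) were then beyond those of POLD2. The mitotic effect of -0.37 (limma adjusted p 0.00698) was -0.32 (adjusted p 0.0557) without the first mitotic library without IP and turned to 0.24 (adjusted p 0.0424) with length and GC trends removed. POLD1, the catalytic subunit, measured 6.28 and 5.84 FPKM against 3.30 and 2.17 FPKM in the interphase IP, and 3.87 and 4.54 FPKM against 1.34 and 2.01 FPKM in the mitotic IP. Its IP effects were -0.93 and -0.97 (limma adjusted p 0.0013 and 0.0014), and they were 0.14 and -0.34, not called, once length and GC trends were removed. POLD3, an accessory subunit, measured 6.96 and 7.46 FPKM against 14.3 and 14.3 FPKM in the interphase IP, and 11.7 and 12.3 FPKM against 16.7 and 18.7 FPKM in the mitotic IP. Its IP effects were 0.90 (SE 0.10, limma adjusted p 4.47e-05) and 0.52 (SE 0.10, limma adjusted p 0.00191), which were 0.35 (adjusted p 0.0116) and 0.17 (adjusted p 0.153) with length and GC trends removed.

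In polymerase epsilon, which extends the leading strand, POLE (chromosome 12, 132623753 to 132687365) had a level in mitosis without IP that stood above all its other groups. It measured 3.05 and 3.26 FPKM in no-IP interphase, 5.52 and 3.91 FPKM in the interphase IP, 9.44 and 8.70 FPKM in mitosis without IP and 2.14 and 2.90 FPKM in the mitotic IP. Its interphase IP effect was 0.45 (SE 0.17, limma adjusted p 0.0363, lost in 3 of 8 fits, and 0.24 with adjusted p 0.237 without the first interphase IP library; with length and GC trends removed it was 0.68). In mitosis it was -1.53 (SE 0.17, limma adjusted p 6.36e-05), and the difference of -1.97 (SE 0.24, limma adjusted p 0.000288) was the lowest of the 39. POLE2, its second subunit, measured 4.23 and 3.27 FPKM, 3.62 and 2.99 FPKM, 4.28 and 5.66 FPKM, and 3.37 and 4.61 FPKM in the same order of groups. Mitosis without IP lies above both interphase groups, and the other groups overlap. No comparison of POLE2 passed the limma test, with adjusted p between 0.163 and 0.73, though the phase difference without IP, 0.33, was 0.56 (adjusted p 0.0237) with length and GC trends removed.

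The clamp PCNA (chromosome 20, 5114953 to 5126626) measured 135 and 108 FPKM in no-IP interphase, 72.2 and 60.3 FPKM in the interphase IP, 38.2 and 59.3 FPKM in mitosis without IP and 51.8 and 77.9 FPKM in the mitotic IP. The interphase libraries without IP lie above all the others, and the mitotic IP overlaps with both of the remaining groups. Its phase difference without IP was -1.32 (SE 0.25, limma adjusted p 0.00225). The interphase IP effect of -0.86 (limma adjusted p 0.0108) was lost in 2 of 8 fits (-0.70, adjusted p 0.0727 without the first interphase library without IP) and was -0.31 (adjusted p 0.284) with length and GC trends removed. Among the clamp loader genes, RFC4, which overlaps EIF4A2, measured 29.5 and 22.9 FPKM, 20.6 and 14.9 FPKM, 18.7 and 21.6 FPKM, and 23.8 and 29.5 FPKM in the same order. Its IP effect was -0.54 in interphase (limma adjusted p 0.0238), lost in 2 of 8 fits (-0.32, adjusted p 0.176 without the second interphase IP library), after median centring (-0.41, adjusted p 0.0646) and with length and GC trends removed (-0.02, adjusted p 0.946). In mitosis it was 0.38 (limma adjusted p 0.0986), called after median centring (0.48, adjusted p 0.039). RFC3 rose with IP in interphase and in mitosis (0.53 and 0.96, limma adjusted p 0.00383 and 0.000163), which were 0.17 (adjusted p 0.208) and 0.51 (adjusted p 0.00278) with length and GC trends removed. RFC2 was lower in the interphase IP (-1.18, limma adjusted p 1.86e-05, and 0.04, adjusted p 0.787, with those trends removed) and stood at 0.01 in mitosis (0.46, adjusted p 0.00555, with the trends removed). RFC5 had IP effects of 0.26 and 0.43, the second called (limma adjusted p 0.0416) but lost in 4 of 8 fits (0.23, adjusted p 0.267 without the second mitotic IP library), after quantile normalization (0.32, adjusted p 0.104) and with length and GC trends removed (0.24, adjusted p 0.162).

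The genes of lagging-strand maturation come next. FEN1, the flap nuclease, measured 29.9 and 24.6 FPKM in no-IP interphase, 12.2 and 10.3 FPKM in the interphase IP, 13.3 and 15.4 FPKM in mitosis without IP and 12.3 and 13.6 FPKM in the mitotic IP. As for PCNA, the interphase libraries without IP lie above all the others. The phase difference of FEN1 without IP was -0.88 (SE 0.13, limma adjusted p 0.000874), and its interphase IP effect was -1.20 (SE 0.13, limma adjusted p 3.93e-05; -0.25 and 0.112 with length and GC trends removed). LIG1, the ligase that seals the fragments, measured 5.04 and 4.18 FPKM, 3.03 and 2.91 FPKM, 8.52 and 8.23 FPKM, and 2.88 and 3.16 FPKM in the same order. It was higher in mitosis without IP (0.74, SE 0.12, limma adjusted p 0.00121) and lower in the mitotic IP (-1.22, SE 0.12, limma adjusted p 4.07e-05). The 2 IP groups of LIG1 overlap. Its interphase IP effect of -0.50 (limma adjusted p 0.00508) was -0.39 (adjusted p 0.0529) without the first interphase library without IP, -0.29 (adjusted p 0.0562) after quantile normalization and 0.14 (adjusted p 0.311) with length and GC trends removed.

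RPA, the complex that coats single-stranded DNA, has 3 subunits. RPA1, the largest, measured 8.90 and 7.5 FPKM, 8.09 and 7.20 FPKM, 8.47 and 10.9 FPKM, and 5.07 and 6.00 FPKM in the same order of groups. It was lower in the mitotic IP (-0.71, SE 0.15, limma adjusted p 0.00305). RPA2 was lower in the interphase IP (-0.74, limma adjusted p 0.000322; -0.10 and 0.454 with length and GC trends removed) and higher in the mitotic IP (0.50, limma adjusted p 0.00432). The difference for RPA2 was 1.23 (SE 0.16, limma adjusted p 0.000438) and held in every alternative, at 0.71 with length and GC trends removed. RPA3, the smallest subunit, whose interval overlaps UMAD1, measured 12.9 and 15.6 FPKM against 2.06 and 2.19 FPKM in the interphase IP, and 8.27 and 8.46 FPKM against 2.93 and 3.21 FPKM in the mitotic IP. Both IP effects were negative, -2.28 (SE 0.12, limma adjusted p 7.69e-07) and -1.20 (SE 0.12, limma adjusted p 4.75e-05).

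The IP effect was then compared between the phases over all 39 genes. It was higher in mitosis for POLD2, GINS2, RPA2, RPA3, ORC5 and POLA2, and lower for POLE, MCM3, POLA1, ORC3 and LIG1, and these 11 calls held in every alternative and with any 1 library left out. The limma interaction called 15 of 39 higher and 11 lower (38.5% and 28.2%), beside 27.2% and 19.9% of all genes (47.1% in either direction), with a median of 0.17 against 0.07. The number of lower genes fell from 11 to 6 without the first interphase IP library, 7 without the first mitotic IP library, 5 without the second interphase library without IP and 6 without the second mitotic one, and the number of higher genes fell from 15 to 10 without the first mitotic library without IP and to 8 with length and GC trends removed. By sign of the calls in each phase, 7 genes were higher in both IPs (ORC2, ORC4, CDC6, GINS4, PRIM2, POLD3 and RFC3) and 7 lower in both (MCM2, MCM5, MCM7, POLD1, POLD2, LIG1 and RPA3), beside 24.8% and 23% of all genes. Of these 14, GINS4 and RPA3 kept both calls in every alternative and with any 1 library left out, and the other 12 lost or turned at least 1. GINS2, POLA2 and RPA2 were lower in the interphase IP and higher in the mitotic IP, and POLE was the single gene with the opposite turn, beside 2.47% and 3.73% of all genes. Of these 4, GINS2 alone kept both calls in every alternative and with any 1 library left out.

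**Figure D4:**
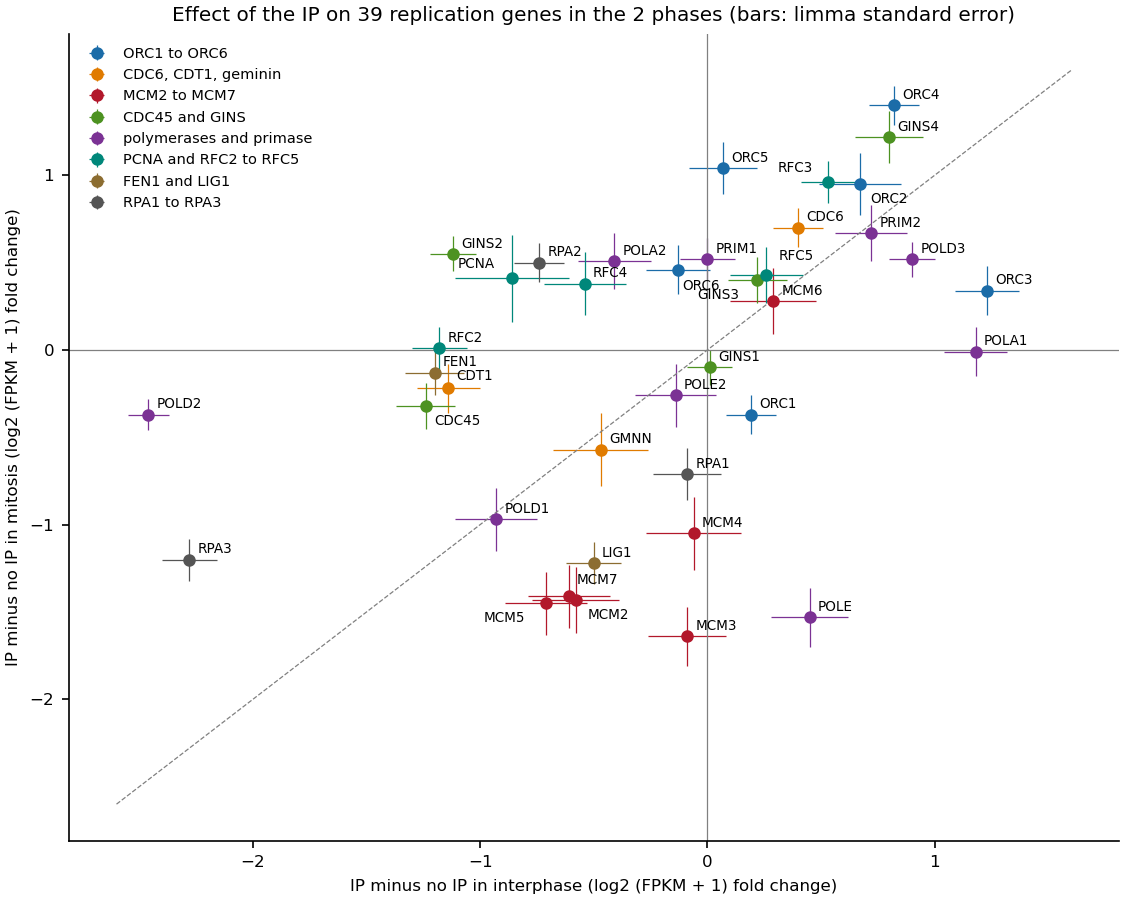
IP effect in mitosis (vertical axis) against IP effect in interphase (horizontal axis) for 39 genes, both as log2 (FPKM + 1) fold changes with limma standard errors, coloured by role; the dashed line marks equal effects. MCM2, MCM3, MCM4, MCM5 and MCM7 lie between -1.05 and -1.64 in mitosis, below the line, and POLD2 (-2.46) and RPA3 (-2.28) lie farthest left.

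Within the IP libraries, mitosis differed from interphase in the same kind of mixed way. ORC5, ORC6, GINS2, POLA2, PRIM2 and POLD2 were higher in the mitotic IP, by 2.83-fold to 3.61-fold, and MCM2, MCM3, MCM4 and MCM5 were lower, with interphase levels 2.63-fold to 3.79-fold above. The limma test called 16 of 39 higher and 12 lower (41% and 30.8%), beside 35.8% and 25.6% of all genes (61.4% in either direction), and the medians were 0.19 and 0.08. After median centring the split was 11 higher and 13 lower. ORC5, ORC6, GINS1, POLA2, PRIM2, POLD3 and RFC3 were higher in mitosis both with and without IP, whereas CDC6, MCM2 and MCM6 were lower in both. The shares over all genes were 15.4% and 10.7%. Of these, the calls of GINS1, POLD3 and MCM6 in the IP were lost in 4, 7 and 2 of the 8 fits with a library left out. Their highest adjusted p were 0.0798 for GINS1 (0.30) and 0.191 for POLD3 (0.21), both without the second mitotic IP library. Without IP, POLA2 was lost in 4 of 8 fits (0.40, limma adjusted p 0.17 without the second interphase library without IP) and GINS1 in 1 (0.32, adjusted p 0.0632 without the second mitotic library without IP).

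The genes differ in the length and base composition of their transcripts, and in interphase the IP effect varied with both. The longest annotated transcripts of the 39 genes had a median of 3157 nt (1262 to 8011), beside 3615 nt over all genes, and a median GC content of 47.5% (37.7% to 65.0%), beside 47.6%. Across the 39 genes, the IP effect in interphase had a Spearman's rho of -0.69 with GC content and 0.47 with length, and the 13141 genes with both values had -0.71 and 0.53. In mitosis the values were -0.66 and -0.10 for the 39 genes and -0.56 and 0.28 for all. These correlations are across genes, which share libraries and are no independent replicates, so they are descriptions without a test. The origin recognition genes ORC2 to ORC5 have a GC content of 37.7% to 41%, and MCM2, MCM5 and MCM7 have 57.0% to 58.1%. MCM6, with 43.1%, is the lowest of the ring genes. MCM3 (51.6%) and MCM4 (48.5%) lie between them.

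**Figure D5:**
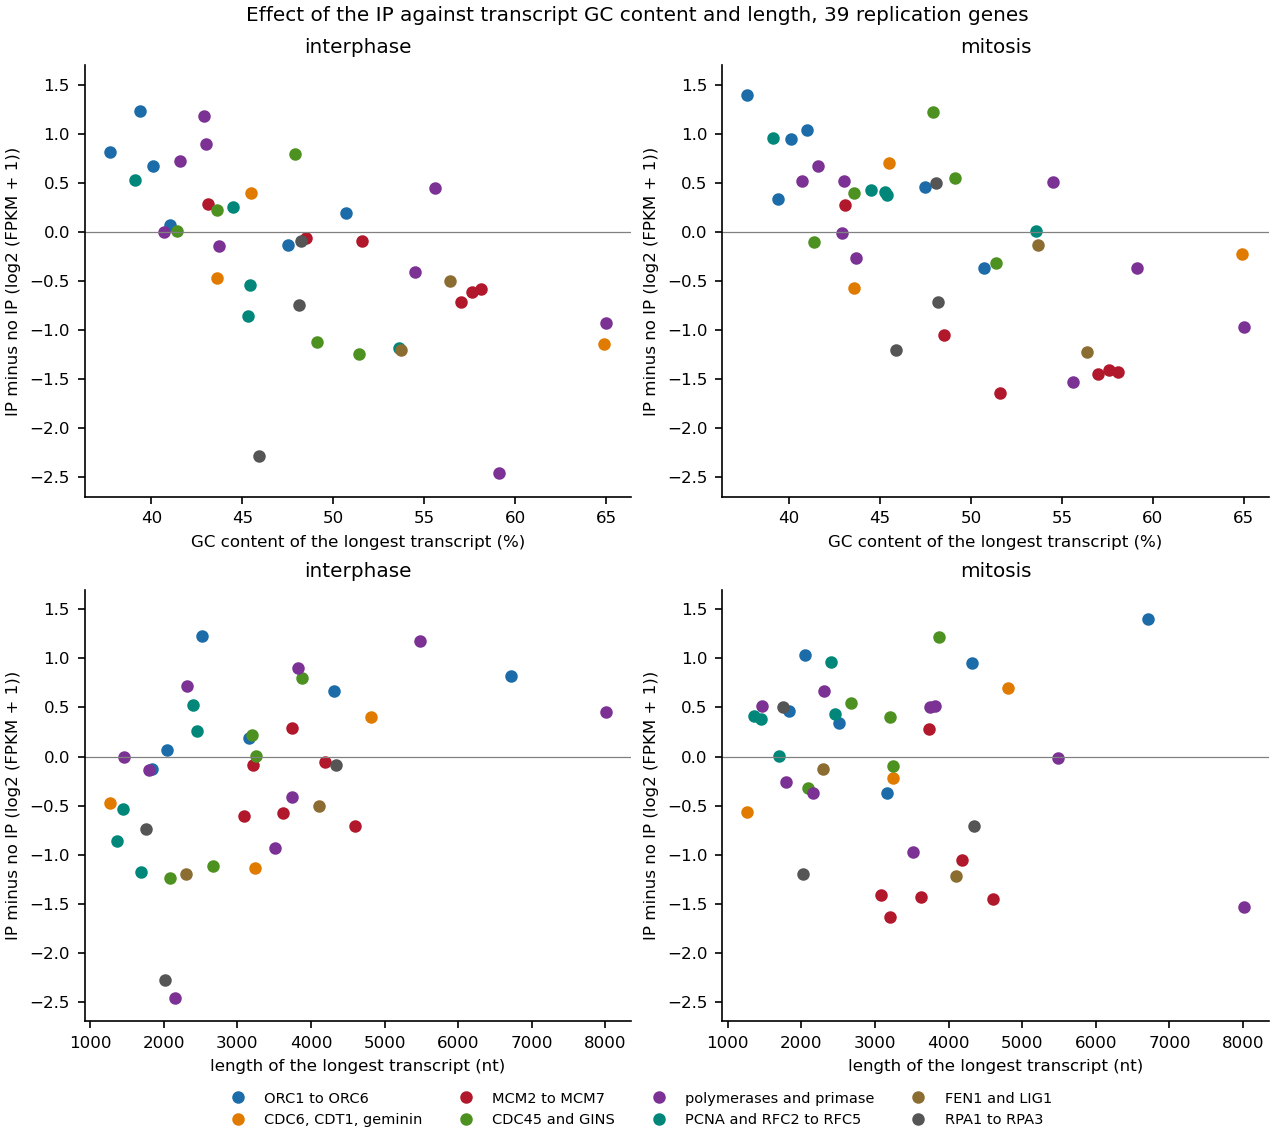
IP effect in interphase (left) and mitosis (right), as log2 (FPKM + 1) differences, against the GC content (upper row, percent) and the length (lower row, nt) of the longest annotated transcript of the 39 genes, coloured by role. The effect is lower at higher GC content in both phases (rho -0.69 and -0.66), and rises with length in interphase (rho 0.47) but not in mitosis (-0.10).

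The genes were also split by the promoter motif. Without IP, 7 of the 17 genes with a motif were higher and 4 lower in mitosis, and of the 16 without one, 3 were higher and 4 lower, with median log2 fold changes of 0.15 and -0.06, beside 26.2% higher and 25.5% lower over all genes. The difference between these sets was not tested. Of the MCM genes printed above, MCM2 and MCM6 were lower in mitosis, calls each lost without the first interphase library without IP. MCM3 (0.00) and MCM7 (0.15) did not pass the limma test (adjusted p 0.996 and 0.508). CDC6 and PCNA were printed as genes that were lower and held a match, so their direction is no result of this split. FEN1 (-0.88) and PRIM1 (-0.83) were lower as well and held no match. RPA3 (-0.70), also lower, had no promoter entry.

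Other genes of DNA replication, 51 of 52 listed names with a row, were counted in the same fits, with the list chosen when earlier results of these data were known. The name without a row, PCLAF, is an alias of KIAA0101, which has one. Without IP, 25 were higher and 8 lower in mitosis, shares of 49.0% and 15.7% beside the 26.2% and 25.5% of all genes. DBF4 (1.51) and CDC7 (0.74), regulator and kinase that activate the loaded ring, and TOP2A (2.08), a topoisomerase of mitotic chromosomes, were among the higher ones, and CCNE1 and CCNE2 among the lower. In the interphase IP, 27 were higher and 19 lower, with a median of 0.47, beside 37.6% and 37% of all genes. In the mitotic IP, 23 were higher and 21 lower, with a median of 0.06, beside 32.8% and 31.7%. The small polymerase subunits POLD4 and POLE4, named after their values were seen, were lower in the interphase IP (-2.47 and -2.85) and less so in the mitotic IP (-0.56 and -0.81), whereas POLE3, another small subunit, was at -0.93 and -2.33, a difference of -1.39 (limma adjusted p 0.000789). SUPT16H and SSRP1, the subunits of the histone chaperone FACT, were lower in the mitotic IP (-1.80 and -2.00), as were TIMELESS (-1.65) and DNMT1 (-1.61). In the interphase IP, SUPT16H (0.52) and DNMT1 (0.63) were higher, and SSRP1 (-1.19) and TIMELESS (-0.61) lower. CDC7 (1.43), MMS22L (1.15) and ASF1A (1.14) were among the 23 higher in the mitotic IP. These names are examples picked from a list meant to be described by counts. The phase difference of the IP effect was called higher for 9 and lower for 16 of the 51, with a median of -0.22, beside 27.2% and 19.9% of all genes.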

How the data were processed

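RNA was measured in 8 libraries of hTERT-RPE1 cells, 2 in each of 4 groups. The authors deposited 1 FPKM value per gene and library, per the file headers, in a table of 13471 genes on build hg38. TopHat and StringTie are named in the submitters' processing notes, without versions, and how reads shared between genes were counted is not given in the sources used here. A second deposited table, of lncRNAs, was not used.

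From these values, log2(FPKM + 1) was fitted in limma (version 3.58.1, R 4.3.3; lmFit and eBayes with trend) with 4 group coefficients over the 8 libraries (4 residual degrees of freedom), unfiltered and without a block. Benjamini-Hochberg adjustment covered all 13471 genes, and a gene is called at an adjusted p below 0.05. Fold changes on the log2 scale are on log2(FPKM + 1) and understate changes of low genes; plain folds are ratios of mean FPKM. The fit was tested on simulated data whose planted changes were larger than most effects given here, so smaller effects were not covered. The 5 comparisons are the IP against no IP in each phase, their difference, and mitosis against interphase without and with IP. Gene positions, transcript lengths and GC contents are from GENCODE release 29 (GRCh38), matched for 97.6% of genes. Total depth is unknown, so no interval or detection limit is given.

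The members and lists were chosen with earlier results of these data known. Values in each library are given for a set list of members and for the 2 highest and 2 lowest log2 fold changes of each comparison; MCM4 was added after its values were seen. Alternatives were other pseudocounts (0.1 and 0.5), a filter (1 FPKM in 2 libraries), median centring, quantile normalization, removal of length and GC trends, eBayes without trend, only the groups compared, a replicate block, and leaving out each library.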

Additional observations from a re-analysis of the deposited data

Results flagged for a closer look

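For 26 of the 39 genes, the effect of the IP differed between mitosis and interphase in the limma interaction (adjusted p below 0.05), as it did for 47.1% of all 13471 genes. They are listed because this test of the difference passed. The values below are log2 differences of the IP effect, mitosis minus interphase. Among the licensing genes they were -0.57 for ORC1, -0.88 for ORC3, 0.58 for ORC4, 0.97 for ORC5, 0.59 for ORC6 and 0.92 for CDT1. The ring genes had -0.85 (MCM2), -1.55 (MCM3), -0.98 (MCM4), -0.74 (MCM5) and -0.80 (MCM7). For the helicase partners the values were 0.92 for CDC45 and 1.67 for GINS2. Polymerase genes had -1.19 (POLA1), 0.92 (POLA2), 0.52 (PRIM1), 2.08 (POLD2) and -1.97 (POLE). The clamp and its loader had 1.27 (PCNA), 1.19 (RFC2) and 0.92 (RFC4). The remaining ones were 1.07 for FEN1, -0.73 for LIG1, -0.62 for RPA1, 1.23 for RPA2 and 1.08 for RPA3.

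Of these 26 calls, 15 held in each of the 8 fits that left out 1 library, and 11 of the 15 also held in every other alternative. The other 4 were lost with length and GC trends removed, at 0.42 for CDT1 (adjusted p 0.0962), 0.36 for CDC45 (adjusted p 0.121), 0.42 for RFC2 (adjusted p 0.0551) and 0.48 for FEN1 (adjusted p 0.0528). The 11 calls lost in some fit were ORC1, ORC4, ORC6, MCM2, MCM4, MCM5, MCM7, PRIM1, PCNA, RFC4 and RPA1. The highest adjusted p among those fits was 0.143 for MCM5 (-0.49) without the second interphase library without IP and 0.142 for RPA1 (-0.45) without the second mitotic library without IP. For PRIM1 (0.43) and ORC6 (0.44), the fits without the first mitotic library without IP gave 0.12 and 0.126. ORC1 (-0.53, adjusted p 0.0551) lost its call without that library too, and ORC4 (0.52, adjusted p 0.0648) without the second interphase library without IP. PCNA (1.14, adjusted p 0.0593) was lost without the second interphase IP library and RFC4 (0.75, adjusted p 0.0674) without the first interphase library without IP.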

How the results depend on the processing

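Pseudocounts of 0.1 and 0.5, the filter on low values and eBayes without trend added 7 calls of single genes in all and removed none. They moved no count of called genes by over 1.5 times. Fitting only the groups compared removed 9 calls of single genes and added 4. For mitosis against interphase in the IP, that fit gave 12 higher and 10 lower genes in place of 16 and 12. The median of the 39 genes in the interphase IP turned from -0.09 to 0.04 after median centring and to 0.01 with length and GC trends removed, where the number of lower genes was 6 in place of 16. In the mitotic IP the median of 0.01 was 0.11 after centring, 0.12 after quantile normalization and 0.17 with the trends removed. For the difference between the phases the median of 0.17 was 0.19 with a pseudocount of 0.1, 0.14 after centring, 0.15 after quantile normalization and 0.13 with the trends removed, where 8 genes in place of 15 were higher. Without IP, quantile normalization gave 16 lower genes in place of 10.

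With length and GC trends removed, 15 single values that were called with or without the removal changed sign. In the interphase IP these became -0.17 for ORC2, -0.38 for ORC4, 0.41 for ORC6, -0.09 for CDC6, 0.01 for CDT1, 0.26 for MCM2, 0.35 for MCM7, -0.51 for GINS1, 0.15 for POLA2, 0.14 for POLD1, 0.04 for RFC2 and 0.14 for LIG1. In the mitotic IP CDT1 became 0.42 and POLD2 0.24, and without IP POLD2 became 0.03. Values called in neither case, such as MCM3 and MCM6 in the interphase IP, changed sign as well and are not all listed. The trends were estimated on these same data and the cause of the changes was not tested.

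Leaving out 1 library at a time, the interphase IP had 7 to 10 higher and 9 to 17 lower genes (median -0.19 to -0.01), the mitotic IP 11 to 17 and 11 to 13 (median -0.02 to 0.17, the lowest without the first mitotic library without IP), and their difference 10 to 17 and 5 to 11 (median 0.06 to 0.34). Mitosis against interphase had 8 to 11 and 7 to 12 without IP (median -0.19 to 0.05, the highest without the first mitotic library without IP) and 11 to 16 and 8 to 13 in the IP (median 0.02 to 0.26). A fit that leaves 1 library in a group assumes that it varies like the others.

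Replicates carry the numbers 1 and 2, which no label ties to a shared culture or day. Deviations of same-numbered libraries correlated at 0.0883 to 0.528 between groups. With the replicate number as a block, 6 gene calls were gained and none lost, with 10 higher and 17 lower genes for the interphase IP, 16 and 14 for the mitotic one, 15 and 12 for their difference, 11 and 10 without IP and 17 and 13 in the IP. Unknown total depth limits all statements on low genes, such as POLD1 in the mitotic IP at 1.34 and 2.01 FPKM.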
